A study of Mus musculus with 6 samples.

Results

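Tac1, Nts and Sct encode precursors of secreted signalling peptides, and their RNA was measured in osteoblasts, the bone-forming cells, sorted from mouse mandible, the bone of the lower jaw, and from tibia, a long bone of the leg. These 3 genes, of 19679 gene symbols in the deposited table, were chosen by their RPKM in these same libraries, as higher in the mandible than in the tibia. The difference in level between the sites is therefore how they were chosen, and it is described here with no test. All animals were at postnatal day 9 (P9) and of 1 genotype, transgenic Col1a1*2,3-GFP, in which a fragment of the promoter of Col1a1, the gene of a type I collagen chain, drives green fluorescent protein (GFP). Tissue of about 50 mice went into each of 3 dissections. GFP-positive cells were sorted after collagenase I digestion, and the RNA of each preparation (2 to 8 ng) was amplified with a low-input cDNA kit before library construction. There were 3 libraries per site, numbered by dissection, and each library holds the RNA of a pool, so differences between single mice cannot be seen. The study compared jaw with limb osteoblasts, with an eye to transcription factors.

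Tachykinin 1 (Tac1) is the precursor of substance P and neurokinin A, peptides released by sensory nerve endings and by neurons of the brain and gut, which act on G protein-coupled neurokinin receptors. Neurotensin (Nts) is made with neuromedin N from a shared precursor in the brain and in endocrine cells of the small intestine, and acts on the receptors Ntsr1 and Ntsr2 and on sortilin (Sort1), a sorting receptor. Secretin (Sct) comes from endocrine S cells of the duodenum, drives bicarbonate secretion by the pancreas, and acts through Sctr, a class B receptor that raises cyclic AMP. In bone, sensory fibres that contain substance P are known in periosteum and marrow.

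The exons that carry the peptides show what the measured RNA encodes. On build GRCm38, the assembly called mm10 in the authors' file header, the GENCODE M21 annotation places Tac1 on chromosome 6 from 7554879 to 7565834 on the plus strand. Nts lies on chromosome 10 from 102481756 to 102490486 on the minus strand, and Sct on chromosome 7 from 141278330 to 141279133 on the minus strand. The sequences below are written 5′ to 3′ on the coding strand, from the gene models of that annotation matched to the RefSeq transcripts of the table. Exon 3 of Tac1 (chr6:7556684-7556780, plus strand) encodes substance P and exon 6 (chr6:7559099-7559152) encodes neurokinin A. Capitals mark the 15 bases for the carboxy-terminal 5 residues, the end that tachykinins share and that their receptors recognise.
Tac1 exon 3: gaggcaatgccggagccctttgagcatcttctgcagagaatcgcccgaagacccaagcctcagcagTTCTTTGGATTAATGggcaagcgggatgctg
Tac1 exon 6: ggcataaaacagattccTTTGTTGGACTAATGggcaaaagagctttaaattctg
In both exons the capitals are followed by a glycine codon, which supplies the amide of the mature peptide, and by a pair of basic codons where the precursor is cut.

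The last exon of Nts holds both of its peptides in tandem. Its coding part (chr10:102482334-102482483, minus strand) is printed with capitals on the 12 bases that encode the shared 4-residue end, first of neuromedin N and then of neurotensin.
Nts exon 4, coding part: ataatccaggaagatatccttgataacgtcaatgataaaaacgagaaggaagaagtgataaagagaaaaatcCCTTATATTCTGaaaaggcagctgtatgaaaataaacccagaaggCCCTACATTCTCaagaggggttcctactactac
Exon 2 of Sct (chr7:141278833-141278934, minus strand) encodes the whole of mature secretin, marked by 81 bases in capitals.
Sct exon 2: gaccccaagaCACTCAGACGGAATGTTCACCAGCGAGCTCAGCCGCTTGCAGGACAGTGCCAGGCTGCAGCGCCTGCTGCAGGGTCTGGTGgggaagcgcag

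Across mandible libraries 1, 2 and 3 Tac1 stood at 19.9, 14.3 and 9.44 RPKM. Across tibia libraries 1, 2 and 3 it stood at 0.315, 2.62 and 0.616 RPKM. RPKM is the number of reads scaled to transcript length and to all mapped reads, summed here over the transcripts of a gene. The lowest mandible library was above the highest tibia library, and tibia library 2 stood apart from the other tibia libraries on the high side. The mean was 14.6 ± 5.26 RPKM in the mandible and 1.19 ± 1.26 RPKM in the tibia (SD, n = 3 each), a 12.3-fold difference of means. Within dissections 1, 2 and 3 the mandible value was 63.4, 5.46 and 15.3 times the tibia value. From read totals estimated for each library, the mandible values rest on about 1061, 861 and 505 reads and the tibia values on about 19, 131 and 36.

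Nts stood at 13.5, 14.3 and 13.3 RPKM in mandible libraries 1, 2 and 3, the closest agreement among the 3 genes, with a coefficient of variation of 4.03% against 10.7% for Sct and 36.1% for Tac1. In tibia libraries 1, 2 and 3 it stood at 1.57, 1.65 and 3.19 RPKM, with library 3 the highest. The sites did not overlap. The means were 13.7 ± 0.552 and 2.13 ± 0.913 RPKM (SD, n = 3 each), a 6.42-fold difference, the smallest of the 3 genes. About 833, 1036 and 856 reads lay behind the mandible values and about 96, 106 and 207 behind those of the tibia.

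Across mandible libraries 1, 2 and 3 Sct stood at 14.5, 12.2 and 15.0 RPKM. Its tibia values, in the same order, were 0.195, 0.372 and 1.11 RPKM. Again the sites did not overlap, and tibia library 3 was the highest of its site. The means were 13.9 ± 1.49 and 0.558 ± 0.485 RPKM (SD, n = 3 each), and their 24.9-fold difference was the widest of the 3 genes. The tibia values rest on about 5, 10 and 30 reads, so the size of this fold is poorly fixed from the tibia side, whereas about 364, 361 and 394 reads lay behind the mandible values.

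All 3 genes had every mandible library above every tibia library, as did 12.6% of the 12752 genes tested (1604 genes), while 3.05% had every mandible library below, and the choice of the 3 genes used this contrast. On the scale log2(RPKM + 0.5), which understates differences of low genes, the mandible exceeded the tibia by 3.35 for Tac1, 2.48 for Nts and 3.86 for Sct. Over all genes tested the median difference on that scale was 0.12. Ordered from most above to most below the tibia, the genes stood 18th, 51st and 9th, a direction for which they were chosen. Within dissections 1, 2 and 3 the log2 difference was 4.65, 2.25 and 3.16 for Tac1, 2.76, 2.79 and 1.90 for Nts, and 4.43, 3.87 and 3.27 for Sct. Among all 19679 gene symbols, tested or not, the genes lay between the 78.6th percentile (Tac1 in library 3) and the 88.5th (Tac1 in library 1) in the mandible libraries. In the tibia they lay between the 28.8th (Sct in library 1) and the 61.8th (Nts in library 3).

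In the mandible the mean RPKM, a level per length of transcript, was 14.6 ± 5.26 for Tac1, 13.9 ± 1.49 for Sct and 13.7 ± 0.552 for Nts (SD, n = 3), and the libraries of neighbours in that order overlapped. In the tibia the order was Nts, Tac1, Sct, at 2.13 ± 0.913, 1.19 ± 1.26 and 0.558 ± 0.485. Neighbours in that order overlapped, since the Tac1 value of tibia library 2 lay above the Nts values of tibia libraries 1 and 2. In each tibia library Nts was above Sct.

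**Figure D1:**
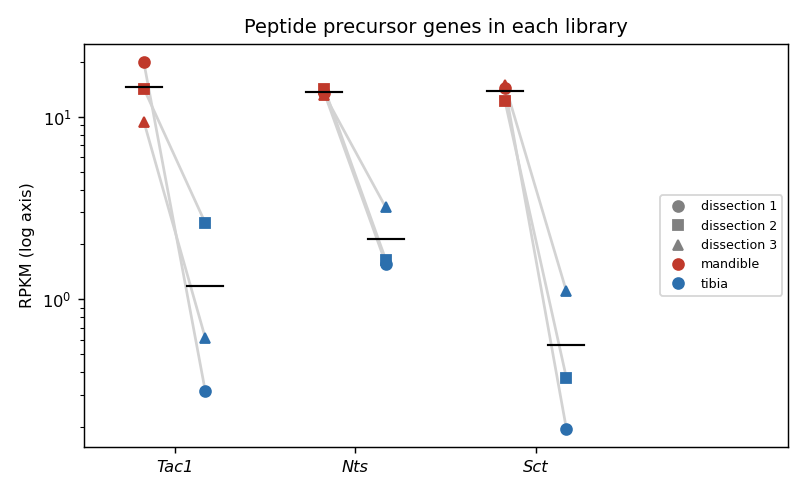
RPKM of Tac1, Nts and Sct on a log axis, with 1 point per library, a grey line joining the libraries of 1 dissection and a short black line at the mean of each site (n = 3 per site). The mandible libraries lie between 9.44 and 19.9 RPKM and the tibia libraries between 0.195 and 3.19 RPKM, with no overlap for any of the 3 genes.

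These are bulk libraries, in which fewer cells of a type and less RNA per cell cannot be told apart. The labelled cell type had its markers in every library: the summed RPKM of 9 osteoblast markers ran from 54431 to 64157 in the mandible and from 58390 to 66594 in the tibia, and 0 of the 9 passed the limma test, adjusted or not; with the dissection block 1 was called higher and 2 lower. The test was limma on log2(RPKM + 0.5) with Benjamini-Hochberg adjustment over the 12752 genes with a mean of at least 0.5 RPKM, at an adjusted p under 0.05. It called 124 genes (0.972%), 111 higher in the mandible (0.87%) and 13 lower (0.102%). With the dissection number as a block it called 828 genes (6.49%), 566 higher (4.44%) and 262 lower (2.05%). Left out in turn, mandible libraries 1 and 2 and tibia libraries 1, 2 and 3 left 46, 40, 37, 48 and 72 calls. Without mandible library 3 there were 141. Estimated read totals were 49 to 58 M per library. Globin transcripts took 0.555% to 3.5% of the summed RPKM in the mandible libraries, against 1.47% to 7.80% for the tibia.

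Tac1 and Sct are listed in the table as several transcripts, so the same libraries also show which forms were present. The choice of the genes did not use these shares, which are estimates of the authors' software and not direct counts. Of the Tac1 value, the 7-exon transcript NM_009311 made up 71.6%, 64.2% and 63.7% in mandible libraries 1, 2 and 3. The remainder was NM_001311060, which lacks exon 4. The annotated transcripts are, in that order, 1230 and 691 bases long, with coding sequences of 390 and 345 bases. They thus also differ outside the coding part, and the estimated shares need not rest on exon 4 alone. Exon 4 (chr6:7557216-7557260, plus strand) has 45 bases, so skipping it keeps the reading frame, and exons 3 and 6 printed above are in both forms.
Tac1 exon 4: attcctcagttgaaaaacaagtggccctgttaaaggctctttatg
The form with exon 4 is the one that can also give neuropeptide K, and the form without it can give neuropeptide gamma, both being extended forms of neurokinin A.

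In tibia libraries 2 and 3 the form with exon 4 made up 49.9% and 78.3% of the Tac1 value, and in tibia library 1, with about 19 reads, nearly all of it. The shares averaged 66.5% ± 4.39 in the mandible and 76.1% ± 25.1 in the tibia (SD, n = 3 each). An exact two-sided permutation test gave p = 0.6, or 0.6 after Benjamini-Hochberg adjustment over 3 such tests, where 3 against 3 libraries cannot go below 0.1. The form without exon 4 alone stood at 5.67, 5.12 and 3.43 RPKM in the mandible. Tibia libraries 2 and 3 had 1.31 and 0.134 RPKM of it.

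Sct had 3 transcripts, and all of them hold exon 2 with the bases of mature secretin. NM_011328 made up 56.5%, 73.1% and 72.5% of the Sct value in mandible libraries 1, 2 and 3. Its share in tibia libraries 1, 2 and 3 was 84.7%, 99.9% and 62.9%. NM_001309439 lacks the first 7 bases of exon 3 (chr7:141278716-141278722, minus strand). Its annotated coding sequence is 231 bases against 399 in NM_011328, so it differs downstream of secretin. NM_001287171 starts exon 4 earlier by 18 bases (chr7:141278522-141278539, minus strand), and its coding sequence is 417 bases.
Sct exon 3 start: cgagcag
Sct exon 4 extension: tcccctctccttccacag
The form with the shorter exon 3 took 32.6%, 19.7% and 26.4% of the Sct value in the mandible libraries. In tibia libraries 1 and 2 its estimated values were 1.73e-12 and 7.01e-16 RPKM, far under the worth of 1 read, and in library 3 it took 10.4%. Its mean share was 26.2% ± 6.44 in the mandible and 3.46% ± 5.99 in the tibia (SD, n = 3 each), with no overlap between the sites. The exact two-sided permutation p was 0.1, the smallest this design can give, and 0.3 after adjustment over the 3 tests. The tibia shares rest on about 5 to 30 reads of the whole gene, so a form at the mandible share could have been missed in tibia libraries 1 and 2. For NM_011328 the shares of 67.3% ± 9.40 and 82.5% ± 18.6 gave an exact permutation p of 0.3 (adjusted 0.45). Nts is listed as 1 transcript, NM_024435, of 4 exons and 1248 bases.

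**Figure D2:**
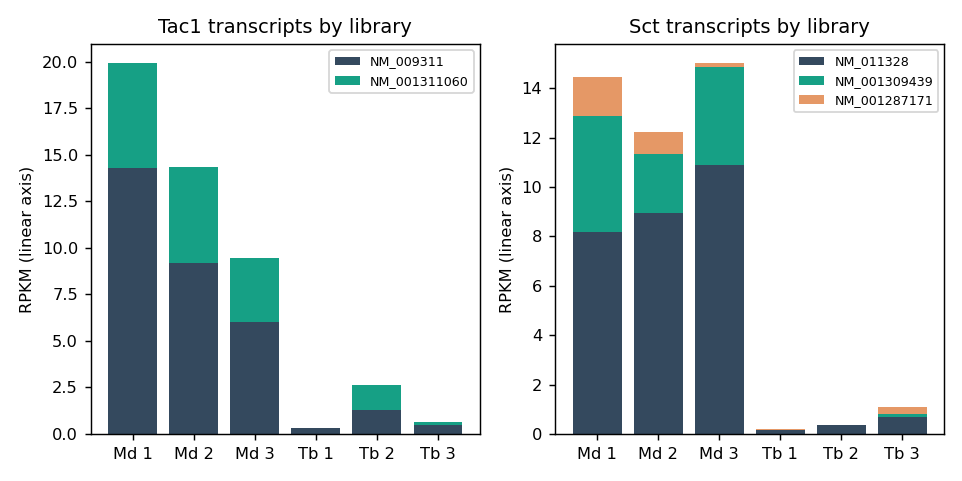
RPKM of each transcript of Tac1 and Sct as stacked bars, 1 bar per library, on a linear axis from 0. In the mandible libraries the Tac1 form with exon 4 makes up 63.7% to 71.6% of the bar, and the Sct form with the shorter exon 3 makes up 19.7% to 32.6%.

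The 4 G protein-coupled receptors of these peptides in the table were at or near the bottom of the measurable range at both sites. Of the sorting receptors that bind neurotensin, 2 were well measured and tested, and neither passed (limma, 0 also at an unadjusted p under 0.05). Tacr1, the substance P receptor, stood at 0.0482, 0.0479 and 0 RPKM in mandible libraries 1, 2 and 3, against 0.0243, 0.0498 and 0.0307 RPKM in those of the tibia. That is about 12, 14 and 0 reads against 6, 13 and 8. Tacr2, the neurokinin A receptor, was listed above 0 only in library 1 of each site, at 0.00895 RPKM for the mandible and 0.0901 RPKM for the tibia. Ntsr1, the neurotensin receptor of high affinity, was listed above 0 only in mandible library 2, at 0.0351 RPKM or about 8 reads. The levels of all of them overlapped between the sites.

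Sctr, the secretin receptor, stood at 0.0107, 0.247 and 0 RPKM in mandible libraries 1, 2 and 3, against 0.0541, 0.10 and 0 RPKM in those of the tibia. Mandible library 2 was the highest, with about 27 reads, and both libraries of dissection 3 were listed at 0. Tacr1, Tacr2, Ntsr1 and Sctr were all under the mean of 0.5 RPKM needed for the test. Tacr3 and Ntsr2 were not analysed here.

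Sortilin (Sort1), which binds neurotensin and sorts proteins in the Golgi and endosomes, stood at 3.45, 2.53 and 3.01 RPKM in the mandible and at 2.71, 2.68 and 3.84 RPKM in the tibia. The sites overlapped, with a log2 difference of -0.03 (SE 0.21; limma adjusted p = 0.989). Its relative Sorl1, which also binds neurotensin, stood at 0.766, 0.737 and 0.730 RPKM in the mandible and at 0.510, 0.718 and 1.48 RPKM in the tibia. Its log2 difference was -0.11 (SE 0.27; limma adjusted p = 0.971), with tibia library 3 above the rest. A p above the threshold does not show that these levels were equal, and the direction of Sort1 and of Sorl1 was turned by leaving out dissection 3.

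**Figure D3:**
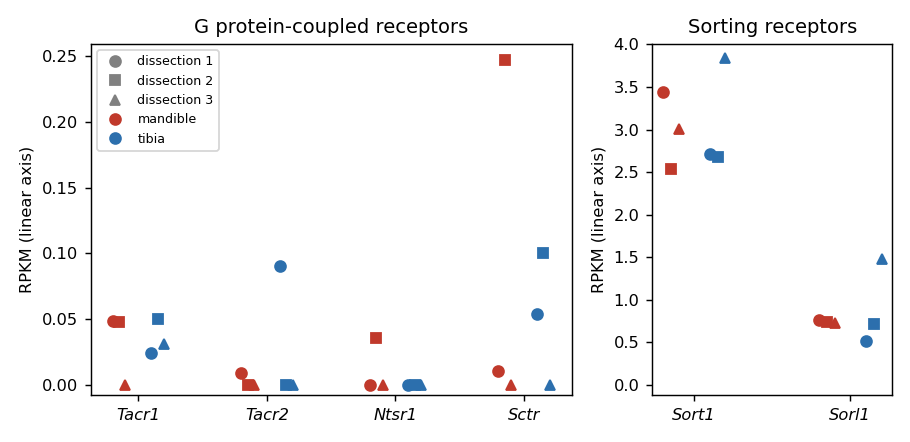
RPKM of the 6 receptor genes in the table, on a linear axis in each of the 2 panels, with 1 point per library (n = 3 per site) whose shape gives the dissection. Sort1 and Sorl1 lie between 0.510 and 3.84 RPKM in all 6 libraries, and the 4 G protein-coupled receptors lie at or under 0.247 RPKM.

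Other receptors of the class B family of Sctr, with the receptor activity-modifying proteins (RAMPs) that partner some of them, gave 0 calls among 6 tested of 17 listed. At an unadjusted p under 0.05, limma had 1 of the 6, Calcrl. The list's median log2 difference was -0.01 beside 0.12 for all genes. The parathyroid hormone receptor Pth1r, a receptor of osteoblasts, was the highest at 41.3 ± 13.6 RPKM in the mandible and 36.2 ± 7.23 RPKM in the tibia (SD, n = 3 each; log2 difference 0.16, limma adjusted p = 0.963). Ramp1, which pairs with Calcrl to form the receptor of calcitonin gene-related peptide (CGRP), stood at 19.2 ± 1.19 and 12.3 ± 6.77 RPKM (log2 difference 0.81, adjusted p = 0.737). Calcrl itself was at 1.66 ± 0.469 RPKM in the mandible and 3.59 ± 1.03 RPKM in the tibia, a log2 difference of -0.92 (SE 0.26). Its limma adjusted p was 0.316, and 0.0394 with the dissection block. Ramp3 differed by -0.88 on the log2 scale (adjusted p = 0.751).

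Adcyap1r1, a receptor of the secretin-family peptide PACAP, was under the level needed for the test and was chosen after its values were seen. It stood at 0.209, 0.238 and 0.206 RPKM in the mandible. In the tibia it was listed at 0, 0.0124 and 0 RPKM. About 55, 65 and 56 reads stood against 0, 3 and 0, and it was the 1 gene of this list called when no minimum level was set.

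No other peptide precursor was called by limma: 0 of 22 tested, of 72 listed and 64 in the table, while 8 of the 64 were under 0.05 RPKM in all 6 libraries. The median log2 difference of the 22 was 0.11 beside 0.12 for all genes, and 13 of the 22 were above 0. At an unadjusted p under 0.05 there were 4: Calca, Calcb, Pthlh and Ppy. Leaving out mandible library 3 gave 2 calls. The precursors of highest level were galanin (Gal), at 38.4 ± 4.38 RPKM in the mandible and 52.4 ± 8.36 RPKM in the tibia, and nucleobindin 2 (Nucb2), at 31.2 ± 0.692 and 32.1 ± 2.94 RPKM (SD, n = 3 each). Their log2 differences were -0.43 (limma adjusted p = 0.643) and -0.04 (0.984).

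The precursors with the widest differences among the 22 were Pthlh, the gene of parathyroid hormone-related protein, and Calcb, the gene of a CGRP. Pthlh stood at 13.7, 16.3 and 7.80 RPKM in the mandible and at 4.39, 3.14 and 3.66 RPKM in the tibia. The sites did not overlap (log2 difference 1.58, SE 0.30), and the limma adjusted p was 0.0934, or 0.0148 with the dissection block. Calcb stood at 2.16, 3.22 and 0.984 RPKM in the mandible and at 0.423, 0.540 and 0.281 RPKM in the tibia. It too did not overlap (1.43, SE 0.35), with a limma adjusted p of 0.202, or 0.0162 with the block.

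With the block, 3 precursors were called higher (Pthlh, Calcb and Penk) and 1 lower (Ppy). The proenkephalin gene Penk was at 35.8, 46.0 and 11.4 RPKM in mandible libraries 1, 2 and 3, against 20.5, 24.4 and 7.23 RPKM in those of the tibia. Its values were lowest in dissection 3 at both sites, and the mandible was above the tibia within each dissection. Calca, which encodes CGRP and is carried with substance P in many sensory fibres, was at 1.92, 2.02 and 2.14 RPKM in the mandible and at 0.0203, 1.43 and 0.640 RPKM in the tibia. In the tibia it was highest in library 2, as Tac1 was. In the mandible it was lowest in library 1, where Tac1 was highest. The log2 difference of Calca, 1.27, did not pass (limma adjusted p = 0.452).

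Among 14 tested genes for peptide processing and the secretory granule, of 21 listed, 1 rose in the mandible, and the list's median log2 difference was 0.01. That gene was Pcsk2, the prohormone convertase of the regulated pathway, which cuts precursors at pairs of basic residues like those beside the peptides printed above. Mandible libraries 1, 2 and 3 had 1.23, 0.985 and 1.39 RPKM, against 0.151, 0.147 and 0 RPKM in those of the tibia. These values rest on about 287, 270 and 338 reads against 35, 36 and 0. The sites did not overlap (log2 difference 1.51, SE 0.19; limma adjusted p = 0.0230, or 0.0111 with the block). The call was lost when any 1 of the 6 libraries was left out, with adjusted p between 0.0534 and 0.139.

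Pcsk1, the other convertase of the regulated pathway, was under 0.05 RPKM in all 6 libraries. Carboxypeptidase E (Cpe), which trims the basic residues after the cut, was at 53.6 ± 16.5 RPKM in the mandible and 94.1 ± 65.8 RPKM in the tibia (log2 difference -0.64, limma adjusted p = 0.849). Cathepsin L (Ctsl), a protease of lysosomes and granules, was at 52.6 ± 5.82 and 60.2 ± 10.9 RPKM (-0.18, adjusted p = 0.940). Secretogranin 3 (Scg3), a granule protein, differed by 0.90 on the log2 scale with an adjusted p of 0.449. With the block, Cpz, another carboxypeptidase, was also called, lower in the mandible at 13.0 ± 1.26 against 22.0 ± 4.15 RPKM (log2 difference -0.72, adjusted p = 0.0185 with the block and 0.295 without).

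Peptidases that break down peptides gave 0 limma calls among 14 tested of 15 listed, and 0 at an unadjusted p under 0.05, with a median log2 difference of 0.21. The endothelin-converting enzymes Ece1 and Ece2 had the highest levels, with log2 differences of -0.13 (limma adjusted p = 0.962) and 0.13 (0.971). Thop1, which cleaves neurotensin, differed by 0.47 (SE 0.92; adjusted p = 0.966) and Enpep by 0.43 (0.733). Of 15 genes for the G proteins, effectors and arrestins that such receptors use, all were tested and 0 were called (1, Plcb1, at an unadjusted p under 0.05), with a median of 0.07. Gnas, the stimulatory subunit used by class B receptors, stood at 198 ± 68.5 and 183 ± 50.9 RPKM (0.10, adjusted p = 0.980), and Gnai2, Plcb1 and Arrb1 differed by -0.10, -0.40 and 0.34 (adjusted p 0.976, 0.544 and 0.764).

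**Figure D4:**
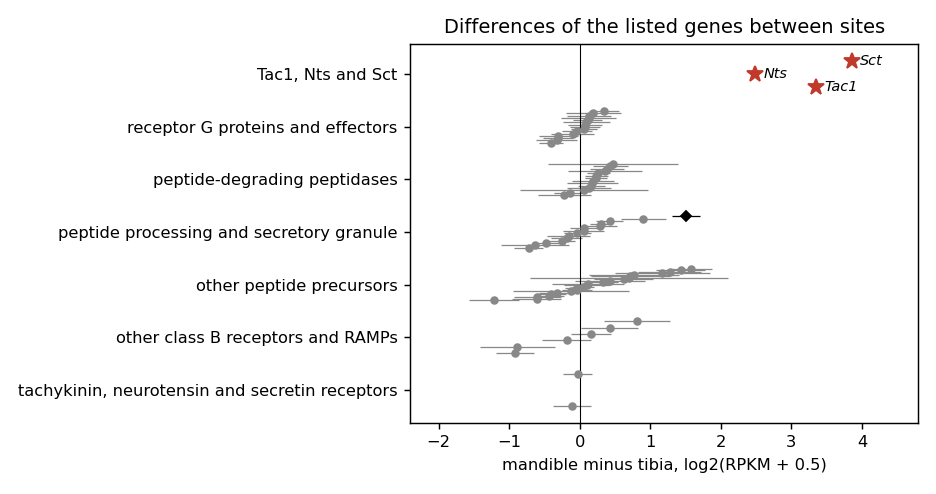
Difference between mandible and tibia on the scale log2(RPKM + 0.5) for each tested gene of the pathway lists, 1 point per gene with its SE from limma as a bar, a black diamond marking a called gene and stars the 3 peptide genes. Tac1, Nts and Sct lie at 3.35, 2.48 and 3.86, and the 1 diamond is Pcsk2 at 1.51.

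Markers of other cells that could hold these RNAs were measured in the same libraries. The neuron list summed to 43.2 to 62.8 RPKM in the mandible and 26.7 to 33.6 RPKM in the tibia. Most of that was Tubb3, a tubulin, at 46.0 ± 9.76 and 20.9 ± 4.91 RPKM (SD, n = 3 each; log2 difference 1.12, limma adjusted p = 0.197, or 0.00450 with the block). Without Tubb3 the neuron sums were 7.65 to 11.6 and 8.69 to 11.3 RPKM, and overlapped. Of 6 tested neuron markers of 13, 0 were called by limma and 1, Tubb3, had an unadjusted p under 0.05, and 2 of the 13, Snap25 and Elavl4, were under 0.05 RPKM in all 6 libraries. Others of the list were present at both sites: Stmn2 ran from 1.34 to 4.14 RPKM over the 6 libraries, Gap43 from 1.42 to 3.94, Uchl1 from 1.30 to 2.07 and Prph from 0.659 to 2.17, and each overlapped between the sites.

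The peptidergic sensory neuron list summed to 5.84 to 10.5 RPKM in the mandible and 1.79 to 3.52 RPKM in the tibia, with 0 of 3 tested markers of 11 called by limma and all 3 (Avil, Calca and Calcb) at an unadjusted p under 0.05. Its highest gene Avil, an actin-binding protein of sensory neurons, differed by 1.61 on the log2 scale (limma adjusted p = 0.0681, or 0.0107 with the block). The sodium channel genes Scn10a and Scn11a and the transcription factor gene Pou4f1 were under 0.05 RPKM in every library. Another channel gene of the list, Scn9a, under the level needed for the test, stood at 0.0766, 0.164 and 0.0139 RPKM in mandible libraries 1, 2 and 3 (about 36, 91 and 7 reads), against 0, 0.00409 and 0.00612 RPKM in those of the tibia. The list also holds Calca and Calcb, given above.

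The endocrine list summed to 1.63 to 1.95 RPKM in the mandible and 0.442 to 0.812 RPKM in the tibia. Its 1 tested gene was Pcsk2, and without it the sums were 0.400 to 0.684 and 0.442 to 0.661 RPKM. Insm1, Nkx2-2 and Pcsk1 were under 0.05 RPKM in every library, and the granule protein gene Chga reached 0.131 RPKM at most, in tibia library 3.

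Several other marker lists had higher sums in the mandible, as Tac1, Nts and Sct had higher levels. Schwann cell markers summed to 51.0 to 82.8 RPKM in the mandible and 8.67 to 24.2 RPKM in the tibia. Of 4 tested Schwann genes 2 rose, among them Mbp, the gene of myelin basic protein (log2 difference 3.34, limma adjusted p = 0.0268). Epithelial markers summed to 10.8 to 23.1 and 3.87 to 4.66 RPKM, with 2 of 7 higher (Krt14 and Krt8). Ameloblast markers, of the cells that lay down enamel, summed to 513 to 2183 and 6.73 to 9.79 RPKM. Of 5 tested, 4 were higher (Amelx, Ambn, Enam and Mmp20). The other, Klk4, overlapped between the sites (log2 difference -0.61, limma adjusted p = 0.839). Markers of odontoblasts and dental mesenchyme summed to 36.7 to 106 and 11.0 to 15.8 RPKM, with 4 of 7 higher (Dspp, Lhx8, Barx1 and Gsc). Cartilage markers summed to 122 to 208 and 57.8 to 88.3 RPKM, with 1 of 7 higher (Col2a1). At an unadjusted p under 0.05 limma had 4 cartilage genes, with Col2a1, Col9a1 and Sox9 higher and Col10a1 lower. The log2 difference of Col10a1 was -1.40 (limma adjusted p = 0.439). With the block 3 cartilage genes were called higher and 0 lower. Without Col2a1 the cartilage sums overlapped, at 48.1 to 85.4 and 48.5 to 70.1 RPKM, and the list's median log2 difference was 0.09 beside 0.12 for all genes.

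Muscle sums overlapped, at 8.93 to 39.5 RPKM in the mandible and 7.02 to 42.3 RPKM in the tibia, as did those of macrophages and leukocytes (145 to 343 and 176 to 481) and of erythroid cells (2198 to 20648 and 5578 to 42985). Lymphatic (1.55 to 3.89 and 4.54 to 20.6), blood vessel (31.8 to 46.3 and 68.1 to 123) and salivary gland (0.578 to 0.872 and 0.931 to 1.56) sums were lower in the mandible, though the salivary sums overlapped without Amy1 (0.202 to 0.375 and 0.304 to 0.409). None of these 6 lists had a limma call, and at an unadjusted p under 0.05 there were 5 blood vessel, 1 lymphatic, 1 salivary and 1 erythroid gene. With the block 5 of 6 blood vessel, 6 of 7 erythroid, 2 of 6 macrophage and leukocyte and 1 of 3 lymphatic genes were called lower. In all, 14 of 77 tested markers were called, each higher in the mandible, and with the block 23 were higher and 16 lower. With mandible library 1 or 2, or tibia library 1, 2 or 3 left out, 5, 6, 4, 5 and 7 markers were called. Without mandible library 3 there were 12. Amelx, Ambn and Lhx8 were called under every alternative run, and so was Barx1 except at a minimum mean of 1 RPKM, which it does not reach. The part of these cells in the levels of Tac1, Nts and Sct was not tested.

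**Figure D5:**
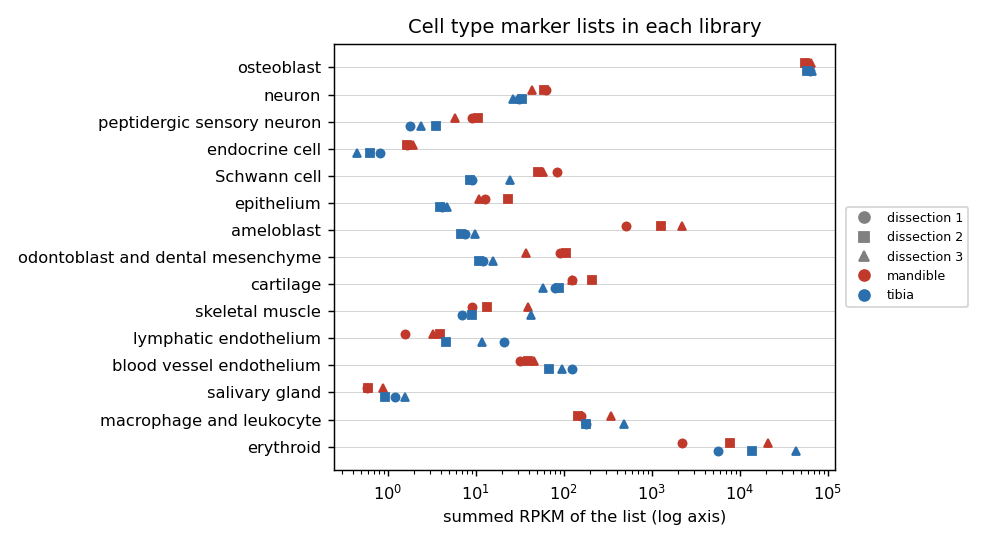
Summed RPKM of each marker list on a log axis, 1 point per library (n = 3 per site). Ameloblast, dental, Schwann cell, epithelial, cartilage, neuron, sensory neuron and endocrine sums are higher in all mandible libraries. Without their highest gene, which the points include, the cartilage, neuron and endocrine sums overlap. Lymphatic, blood vessel and salivary gland sums are lower in all mandible libraries, though the salivary sums overlap without Amy1. Osteoblast sums overlap between 54431 and 66594 RPKM.

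The genes whose profile over the 6 libraries was closest to each of the 3 genes were found from the root mean square difference of log2(RPKM + 0.5) values, each centred on its own mean. This is a description over libraries that share dissections. The profiles are the same values by which the 3 genes were chosen, so genes close to them are higher in the mandible by that choice. For Tac1 they were AI606473 (0.529), Mpzl2 (0.558), Sostdc1 (0.592), Bex2 (0.606) and Fendrr (0.611). AI606473 stood at 5.57, 4.71 and 3.04 RPKM in the mandible and at 0, 0.0800 and 0 RPKM in the tibia, and like Tac1 it was lowest in mandible library 3. Sostdc1, a secreted antagonist of BMP and Wnt signalling, stood at 16.7, 15.1 and 13.1 against 1.73, 2.23 and 1.36 RPKM, and like Tac1 it was highest in library 2 among the tibia libraries.

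For Nts the closest were Otor (0.178), Ldhb (0.214), Ifitm1 (0.215), Msx1 (0.220) and Gm973 (0.264), a tighter match than for the other 2 genes. Msx1, a homeobox transcription factor of jaw and tooth development, stood at 11.3, 9.39 and 10.4 RPKM in the mandible and at 1.25, 0.679 and 2.03 RPKM in the tibia. For Sct they were Dlx4 (0.341), Mbp (0.368), Alx1 (0.404), Pcp4 (0.430) and Plppr1 (0.478). Dlx4, a homeobox factor of the branchial arches, stood at 18.5, 18.3 and 18.0 against 1.16, 1.12 and 1.84 RPKM, and like Sct its tibia values were highest in library 3. Among all genes tested, Sct was 36th and Nts 49th in likeness to Tac1, so none of the 3 genes was among the 5 nearest of another. Nts was 21st and Tac1 33rd in likeness to Sct, while Sct was 140th and Tac1 297th in likeness to Nts.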

How the data were processed

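RNA of sorted osteoblasts was sequenced in 6 libraries, 3 from mandible and 3 from tibia. The deposited values are RPKM per RefSeq transcript, which per the file headers the authors computed with Partek 6.15.1207 on mm10. The submitters' processing notes name CASAVA 1.8.2, TopHat2 2.1.0 and Partek 6.6. Which Partek version made the values, and whether strand was used in counting, are not given in the sources used here. RPKM does not correct for a few transcripts that take many reads, and amplification from 2 to 8 ng adds error beyond counting.

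The RPKM values of 30198 transcripts were summed per symbol (19679 symbols), and 12752 genes with a mean of at least 0.5 entered limma 3.58.1 as log2(RPKM + 0.5) (lmFit, eBayes with trend, site only, two-sided) in R 4.3.3, with Benjamini-Hochberg adjustment at 0.05. The test was first tried on simulated data. Read totals were estimated from the steps of genes with 1 transcript; 66.3% to 70.5% of low values lay within 0.05 of whole reads, and 10% would by chance for a total set beforehand. Genes with several transcripts carry estimated shares, so no count model was fitted, and read numbers are approximate. Figures used matplotlib 3.10.9.

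Tac1, Nts, Sct and all lists were chosen with earlier results of these data known. Named genes are the members, all listed receptors, and in each other pathway list the called genes, the 2 of highest level and the 2 of widest difference. In marker lists they are the called genes and the highest, and for each member the 5 closest profiles. Grk2 was found as Adrbk1. The values of 1 called marker gene are not reported here. Libraries of 1 number share an experiment name in the labels, and their deviations from the site means correlated at 0.59, 0.66 and 0.80 across genes. Mandible 1 with tibia 2 and mandible 2 with tibia 1 gave 0.55 and 0.52, so the values set apart mainly dissection 3. The dissection number was a block in a second fit. Preparations were pools, so the p-values speak of 3 pools per site and not of single mice. Alternatives were other pseudocounts, filters and scalings, the highest transcript per gene, and libraries left out.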

Additional observations from a re-analysis of the deposited data

How the results depend on the processing

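Tac1, Nts and Sct were higher in the mandible under every alternative run, with log2 differences of 2.92 to 3.92, 2.27 to 2.77 and 3.3 to 4.66. Leaving out single libraries gave 2.95 to 3.92, 2.33 to 2.75 and 3.60 to 4.21, and Sct moved most with the pseudocount (4.66 at 0.1 and 3.3 at 1). With the replicate block of dissection number, calls went from 124 to 828 over all genes, 0 to 1 (Calcrl) among class B receptors, 0 to 4 among precursors, 1 to 2 among processing genes and 14 to 39 among markers. It changed no call among the receptors of the 3 peptides, the peptidases or the G proteins. With the block and quantile normalization these counts were 784, 1, 6, 3 and 39, and the share of calls that were higher was 45.9%, against 68.4% with the block and 89.5% without. Without both dissection 3 libraries, 724 genes, 3 precursors, 3 processing genes and 27 markers were called. With no filter, 1 class B receptor and 5 markers were called. Pcsk2, the 1 processing gene, was lost at pseudocount 0.1 and, falling under the filter, at a minimum of 1, leaving 0. Single libraries left out gave 37 to 141 genes, 0 to 2 precursors, 0 processing genes and 4 to 12 markers. Of 45 named genes under 16 alternatives, 579 values kept direction and side of the threshold, 68 lost and 25 gained a call, and 34, of 13 genes that were not called, changed sign. Over single libraries left out the log2 difference ran from -0.22 to 1.52 for Acta1, -0.25 to 0.56 for Bglap, -1.11 to 0.16 for Cd14, -0.25 to 0.031 for Ece1, -0.095 to 0.40 for Ece2, -0.36 to 0.074 for Gnai2, -0.17 to 0.31 for Gnas, -0.11 to 0.0076 for Nucb2, -0.094 to 0.31 for Pth1r, -0.085 to 0.73 for Sfn, -0.32 to 0.17 for Sorl1, -0.12 to 0.12 for Sort1 and -0.62 to 1.05 for Thop1. Median-of-ratios scaling gave -0.058 for Bglap and -0.041 for Gnas, quantile normalization, with or without the block, gave -0.017 for Ece2, -0.095 for Gnas and -0.025 for Pth1r, and leaving out dissection 3 gave -0.17 for Pth1r, 0.17 for Sorl1, 0.11 for Sort1 and -0.15 for Thop1. These scalings moved the median of all genes from 0.12 to -0.00 and -0.01. The causes were not tested. Depth limits the tibia values of Sct and all receptor values below 0.1 RPKM.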

Other observations

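Some peptide genes followed the dissection and not the site, and were chosen after their values were seen. Cartpt, the precursor of the peptide CART, was listed at 0 in library 1 of both sites and stood at 0.652 RPKM in mandible library 2 and 0 in tibia library 2. In dissection 3 it stood at 11.1 RPKM in the mandible and 5.74 RPKM in the tibia, on about 608 and 324 reads. Insl3, a relaxin-family hormone of the testis, reached 2.04 and 2.30 RPKM in mandible and tibia library 3 and at most 0.104 RPKM in the other 4 libraries. Cpa3, a mast cell carboxypeptidase, stood at 9.16 and 4.95 RPKM in dissection 3 and between 0.487 and 1.74 RPKM in the others. Tac2, the neurokinin B precursor and, like Tac1, a tachykinin gene, stood at 0.534, 1.26 and 2.01 RPKM in mandible libraries 1, 2 and 3. In the tibia libraries it stood at 0.388, 0.876 and 2.44 RPKM (log2 difference 0.12, limma adjusted p = 0.984). It overlapped between the sites and was highest in dissection 3 at both, whereas Tac1 was lowest in dissection 3 in the mandible.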
